A study of Homo sapiens with 24 samples.

Results

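The genes described here encode 34 dioxygenases that use 2-oxoglutarate and Fe(II), a family with members that fumarate can inhibit. Inhibition was not measured here and may not hold for each of the 34. They are 16 JmjC histone demethylases of the KDM2 to KDM7 families, the JmjC hydroxylases KDM8 and JMJD6, the 3 TET enzymes, 6 AlkB-type demethylases, the HIF hydroxylases EGLN1, EGLN2 and HIF1AN, the ribosomal hydroxylase OGFOD1 and the collagen hydroxylases P4HA2, PLOD1 and PLOD3. They were picked by symbol from the 21831 genes listed. The rule uses no measured value, but earlier results of these data were known when the genes were picked. All 34 were found in all 24 gene tables, none was at 0 in any library, and all 34 passed the filter on low counts. The cells were HBL-1, a single established human line from a diffuse large B-cell lymphoma of the activated B-cell-like subtype. They received 20 µM dimethyl fumarate (DMF) in the solvent DMSO, or the solvent only (control), and RNA was sequenced after 6, 12, 24 and 48 h from 3 libraries per treatment and time. All cultures, DMF and control, had medium with antibiotics and Plasmocin, an agent against mycoplasma. The labels number the replicates but do not say that they came from separate cultures, so the p-values measure the spread between these libraries, which may be technical.

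Enzymes of this family split molecular oxygen and couple the breakdown of 2-oxoglutarate, an intermediate of the citric acid cycle, to the oxidation of a substrate, and succinate is released. Oxidation of a methyl group on a histone lysine or on a nucleobase removes the methyl group or, with the TET enzymes, starts its removal. Oxidation of proline, asparagine or lysine side chains, in contrast, leaves a hydroxyl group. Fumarate and succinate resemble 2-oxoglutarate and compete with it, and cells without fumarate hydratase, which accumulate fumarate, are the textbook case of such inhibition. DMF is a membrane-permeant ester of fumaric acid that also reacts with cysteine residues. The measurements are of RNA and do not report enzyme activity or the methyl marks themselves.

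Total expected counts, the estimated reads per gene of the RSEM program, ran up to 40906596 per library, and the lowest, 2870751, was that of DMF at 48 h, replicate 1, the next being 23097873. The dioxygenase genes together took 0.217% to 0.285% of these counts in 22 libraries. The replicate 3 libraries of DMF and control at 12 h stood apart from the rest. The effective length of an average counted transcript was 2121 bases in the DMF and 1902 bases in the control library, and 2850 to 3157 bases elsewhere. The summed level of the 34 genes was 489.1 and 337.8 TPM, a level per transcript length, in these libraries, against 813.5 to 1070 TPM in the others. With both libraries in the fit, the common dispersion over all genes was 0.0521, and without them 0.00212. They were therefore left out of the main fit, which leaves 2 libraries per treatment at 12 h, and counts of calls are also given for the fit of all 24 libraries. The defining B cell markers CD79A and CD79B were expressed in every library, at 1353 TPM or more. Of 14 markers of other cell types, the fibroblast gene DCN was at 0 in all 24 libraries and the T cell gene CD3E reached at most 0.07 TPM. The highest of the 14 were the macrophage marker CD68, at 1.86 to 10.01 TPM, the haemoglobin gene HBA1, at up to 4.14 TPM, and the epithelial genes EPCAM, at 0.94 to 3.9 TPM, and KRT8, at 0.49 to 2.41 TPM.

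In DMF cultures at 6 h the 34 genes spanned levels from 0.103 ± 0.0115 TPM for TET1 to 99.0 ± 2.22 TPM for ALKBH5, and in control cultures from 0.367 ± 0.0351 TPM for TET1 to 84.0 ± 2.02 TPM for ALKBH5 (SD, n = 3 libraries each). The N6-methyladenosine demethylase ALKBH5 was thus the most abundant of these transcripts per length in both. In control at 6 h it was followed by the DNA repair enzyme ALKBH2 at 75.0 ± 1.76 TPM, by KDM2A at 68.4 ± 1.10 TPM and by EGLN2 at 68.2 ± 1.66 TPM. KDM2A and EGLN2 differed by less than their spread. JMJD6 took the next place in control with 62.5 ± 1.76 TPM, and reached 98.5 ± 1.46 TPM in DMF at 6 h, where it lay within the spread of ALKBH5. At the lower end of the order stood KDM8 with 3.32 ± 0.250 TPM in DMF and 5.28 ± 0.376 TPM in control, KDM7A with 2.64 ± 0.0907 and 3.18 ± 0.240 TPM, and P4HA2 with 2.51 ± 0.240 and 1.63 ± 0.249 TPM. TET1 was far below all other members in every group at this time.

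**Figure D1:**
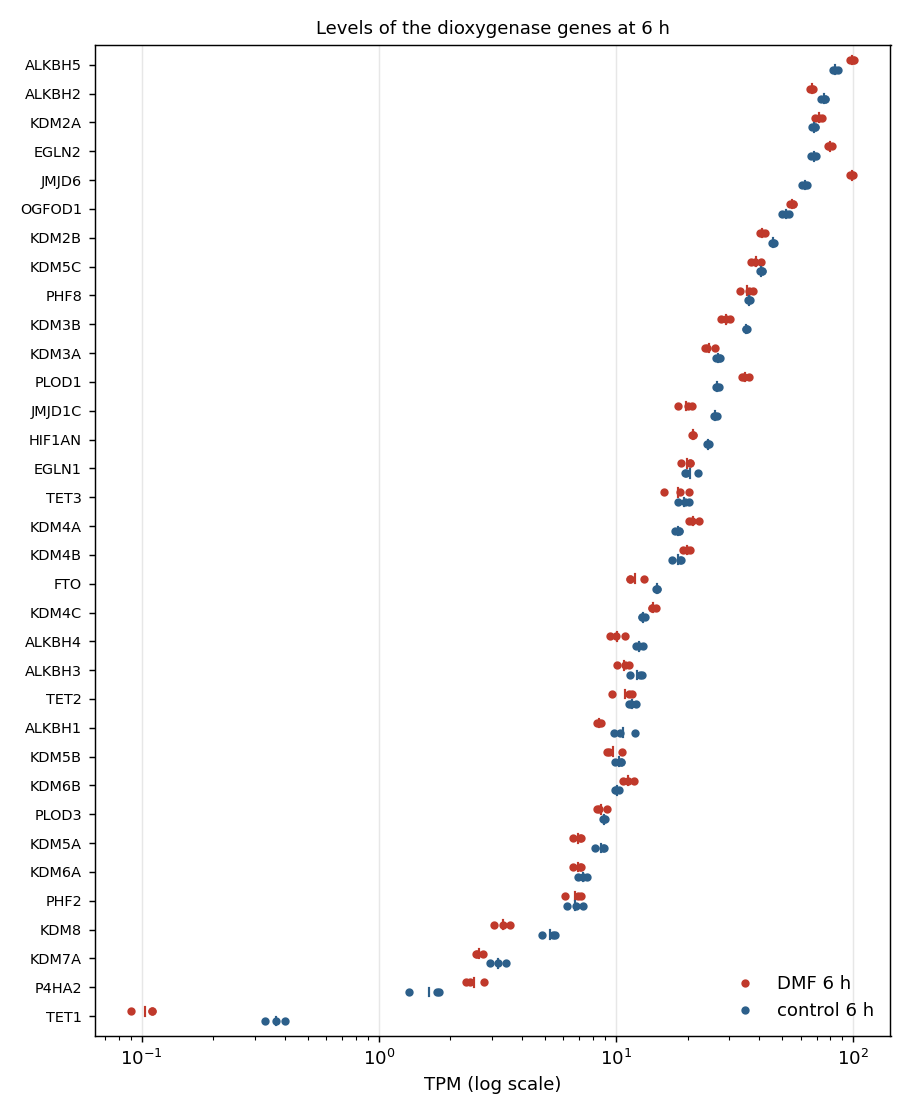
Levels of the 34 dioxygenase genes at 6 h in TPM (log scale), ordered by the control mean; red points are the 3 DMF libraries, blue points the 3 control libraries, and short bars the group means. ALKBH5 leads with 84.0 TPM in control, TET1 is lowest with 0.367 TPM, and JMJD6 shows 98.5 TPM in DMF against 62.5 TPM in control.

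DMF was compared with control at each time, to ask whether the cells altered the transcript levels of these enzymes while exposed to a fumarate ester. At 6 h, 12 of the 34 genes were higher and 7 lower in DMF (adjusted p under 0.05 in edgeR's quasi-likelihood F-test, Benjamini-Hochberg over all 13606 genes tested), where 47.2% of all genes tested were called, 23.8% higher and 23.4% lower. At 12 h, 14 were higher and 5 lower, against 47.9% of all genes called (24.1% higher and 23.8% lower). At 24 h the balance turned, with 7 higher and 18 lower against 57.4% of all genes called (29.5% higher and 27.9% lower). At 48 h, 7 were higher and 14 lower against 64.5% of all genes called (33.6% higher and 30.9% lower). In all, 19, 19, 25 and 21 of the 34 genes were called at the 4 times, and these shares were not tested against the background. The fit of all 24 libraries made fewer calls. At 6 h it had 2 genes higher and 1 lower, where 10.6% of all genes were called (5.03% higher and 5.59% lower). At 12 h it had 3 higher and 2 lower, against 17.3% of all genes (7.37% and 9.95%). At 24 h it had 1 higher and 2 lower, against 14.4% (7.81% and 6.6%), and at 48 h 3 higher and 3 lower, against 25.8% (13.3% and 12.5%).

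The median log2 fold change of the 34 genes was 0.08, 0.11, -0.17 and -0.06 at the 4 times, against -0.003, 0.002, 0.009 and 0.022 over all genes tested. Changes were mostly small: the median size was 0.18, 0.20, 0.25 and 0.29 on the log2 scale, against 0.22, 0.26, 0.27 and 0.34 over all genes. Called changes of at least 1.5-fold were found in 3, 5, 3 and 7 of the 34 genes, where 11%, 14.5%, 16% and 25.3% of all genes reached this size. There were 2, 4, 2 and 3 such genes in all 24 libraries, against 6.17%, 10.6%, 8.83% and 17.5% of all genes. Because the changes are small, the scaling of the libraries bears on the counts. With limma on log2(TPM + 1), 6 genes were higher and 10 lower at 6 h. The split on this scale was 7 to 5 at 12 h, 5 to 17 at 24 h and 14 to 6 at 48 h. On that scale the median of all genes itself lay at -0.099, -0.069, -0.032 and 0.168. Relative to the median of all genes, 21, 23, 10 and 15 of the 34 genes lay above it on counts, and 20, 20, 8 and 16 on TPM. At 48 h the lower calls common to counts and TPM were KDM3A, KDM4B, KDM4C, KDM5B, TET1 and ALKBH2.

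**Figure D2:**
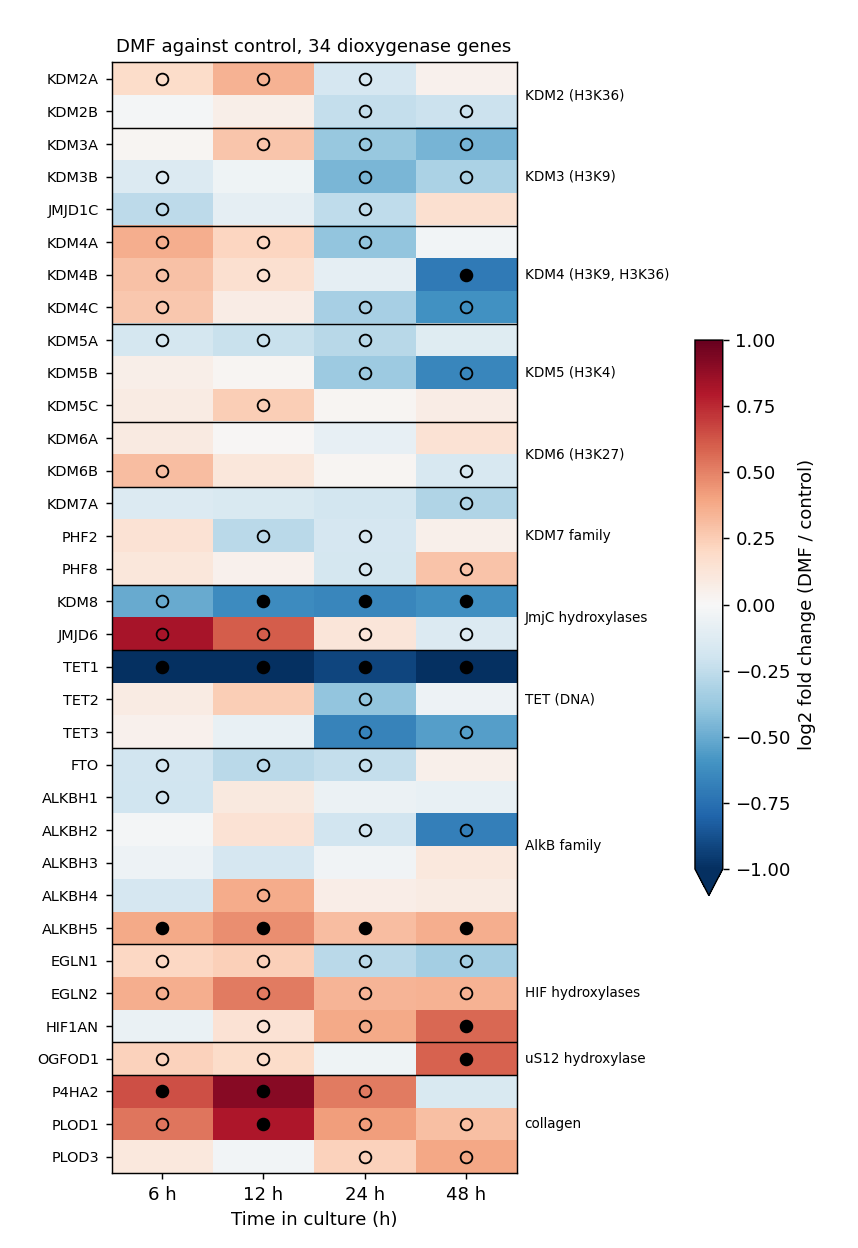
Log2 fold change of DMF over control for the 34 genes at 6, 12, 24 and 48 h (colour limited to 1 in either direction), grouped by family. Circles mark adjusted p under 0.05 in the 22 libraries and filled circles also in all 24 libraries; TET1 and KDM8 are blue and ALKBH5, EGLN2 and PLOD1 red at all 4 times, and most histone demethylases are blue at 24 h.

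Over the 4 times, 3 genes were higher in DMF at every time (ALKBH5, EGLN2 and PLOD1) and 2 were lower at every time (TET1 and KDM8), where 7.57% and 6.76% of all genes had these patterns. The demethylases KDM6A and ALKBH3 were called at no time, as were 12.7% of all genes. A call in one direction at one time and in the other at another was found for 9 of the 34 genes, against 19.5% of all genes. In the fit of all 24 libraries, ALKBH5 was higher and TET1 lower at all 4 times, and KDM8 was lower at 12, 24 and 48 h.

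The TET enzymes oxidise 5-methylcytosine in DNA and so start its removal. TET1 (chr10:68560656-68694482, plus strand, GRCh38) showed the largest change of the 34 genes at each time. At 6 h its CPM, the counts scaled by library total and TMM, were 0.824, 0.633 and 0.778 in DMF, against 2.32, 2.33 and 2.50 in control. The groups did not overlap, and the log2 fold change was -1.68 ± 0.20 (SE, adjusted p = 1.1e-07). Groups without overlap were common with so few libraries, at 59.3%, 73.2%, 63.4% and 60.3% of all genes tested at 6, 12, 24 and 48 h. At 12 h the values were 1.19 and 0.778 CPM in DMF against 1.76 and 2.73 CPM in control. At 24 h they were 1.24, 1.56 and 1.36 CPM in DMF against 2.73, 2.74 and 2.42 CPM in control, and at 48 h 1.52, 2.04 and 1.59 CPM in DMF against 4.12, 3.93 and 3.96 CPM in control. The groups were apart at each time, with log2 fold changes of -1.20 ± 0.22, -0.92 ± 0.17 and -1.14 ± 0.17. TET1 rested on few reads, between 5 and 151 counts per library over the 24 libraries.

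TET2 and TET3, the more abundant paralogues, followed TET1 at 24 h only in part. TET3 had 48.8, 58.9 and 51.2 CPM in DMF at 24 h against 86.8, 80.7 and 85.2 CPM in control, a log2 fold change of -0.66 ± 0.098 (adjusted p = 2.5e-06). It was also lower at 48 h, at 51.1, 53.4 and 48.7 CPM in DMF against 78.8, 57.5 and 88.3 CPM in control, where replicate 2 of control came close to the DMF libraries (log2 fold change -0.55 ± 0.11). TET2 was lower at 24 h (-0.40 ± 0.096, adjusted p = 0.00092) and was not called at the other times. At 24 h, then, all 3 TET transcripts were lower in DMF, while at 6 and 12 h TET1 was the only one called. In the fit of all 24 libraries TET2 and TET3 were called at no time (adjusted p = 0.68 and 0.50 at 24 h).

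KDM8 and JMJD6 carry a JmjC domain but are hydroxylases: KDM8 acts on arginine residues and JMJD6 on lysine residues of proteins that include a splicing factor. They moved in opposite directions. JMJD6 (chr17:76712832-76726799, minus strand) had 110, 112 and 115 CPM in DMF at 6 h against 63.4, 62.5 and 64.4 CPM in control. This was the largest rise of the 34 genes at 6 h, with a log2 fold change of 0.83 ± 0.046 (adjusted p = 1.3e-13). The difference was 0.60 ± 0.056 at 12 h, with 84.4 and 88.1 CPM in DMF against 57.8 and 56.3 CPM in control, and 0.12 ± 0.047 at 24 h. By 48 h JMJD6 stood at 53.2, 57.2 and 58.1 CPM in DMF against 58.9, 67.8 and 61.9 CPM in control (-0.13 ± 0.050), a small difference that had the other sign on TPM (0.05). The early rise of JMJD6 was called in the 22 libraries but not in all 24 (adjusted p = 0.079 at 6 h).

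KDM8 (chr16:27203495-27221768, plus strand) was lower in DMF at every time. It had 5.83, 5.25 and 5.17 CPM in DMF at 6 h against 8.04, 8.02 and 7.06 CPM in control, and 3.25, 3.78 and 3.86 CPM in DMF at 24 h against 5.79, 5.42 and 5.96 CPM in control. These groups were apart, with log2 fold changes of -0.51 ± 0.12 at 6 h and -0.65 ± 0.12 at 24 h. At 12 h the change was -0.63 ± 0.15. At 48 h the groups overlapped, at 4.86, 3.19 and 2.78 CPM in DMF against 4.35, 5.59 and 4.38 CPM in control (-0.61 ± 0.14, adjusted p = 0.00053), and the high DMF value was that of the shallow replicate 1. KDM8 shares 14.5% of its exonic bases with an antisense gene, AC109449.1, in the GENCODE v29 annotation. The strand used in counting is not given in the sources used here, so reads from the shared bases may come from either gene. The expected counts of KDM8, and of KDM4A, EGLN2 and ALKBH5, which also share exonic bases, were whole numbers in every library. That does not settle the origin of such reads, since GENCODE v29 may not be the annotation used in counting.

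**Figure D3:**
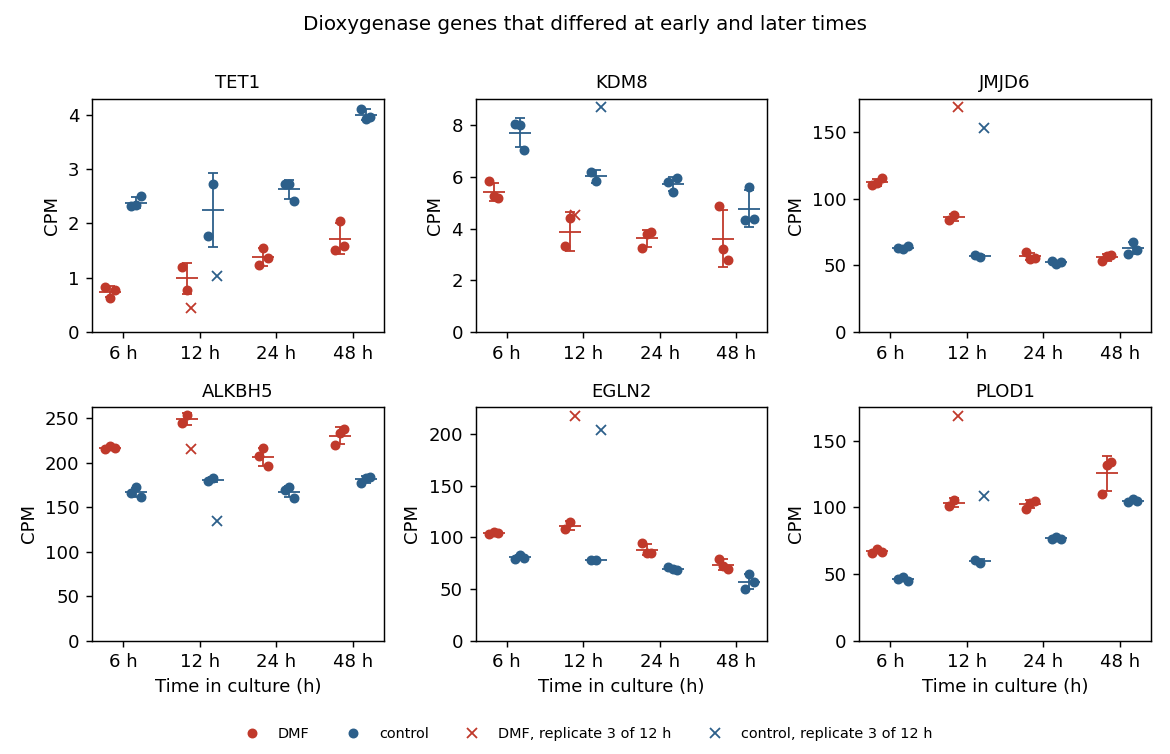
CPM of 6 dioxygenase genes by time, DMF left of control at each time; points are libraries, bars the mean and SD of the libraries in the main fit, and crosses the replicate 3 libraries of 12 h that were left out. TET1 lies lower in DMF and ALKBH5, EGLN2 and PLOD1 higher at each time, KDM8 lies lower at 6 to 24 h and overlaps at 48 h, and JMJD6 is apart at 6 and 12 h and near control later.

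Among the 16 histone demethylases of the KDM2 to KDM7 families, 5 were higher and 3 lower at 6 h, against 23.8% and 23.4% of all genes. At 12 h, 5 were higher and 2 lower, against 24.1% and 23.8%. With TPM, 1 of the 5 was also higher at each of these times, and all of the lower calls were kept. At 24 h none was higher and 11 were lower, where 27.9% of all genes were lower, and 10 of the 11 were also lower with TPM. At 48 h, 1 was higher and 8 lower, against 33.6% and 30.9% of all genes, and 4 of the 8 were also lower with TPM. In the fit of all 24 libraries none of the 16 was called at 6, 12 or 24 h, and KDM4B alone was called at 48 h, as lower. The other 18 dioxygenase genes had 7 higher and 7 lower at 24 h. The 11 were KDM2A and KDM2B, which remove methyl groups from lysine 36 of histone H3, KDM3A, KDM3B and JMJD1C of the family that acts on lysine 9, KDM4A and KDM4C, which act on lysines 9 and 36, KDM5A and KDM5B, which act on lysine 4, and PHF2 and PHF8 of the KDM7 family, which acts mainly on lysine 9. Their log2 fold changes at 24 h ranged from -0.46 for KDM3B to -0.17 for KDM2A and PHF2. The libraries of 24 h also differed in the effective length of an average counted transcript. It was 2890, 3028 and 2961 bases in DMF, below the 3088, 3099 and 3092 bases of control. At 48 h it was 3091, 3157 and 3114 bases in DMF, above the 3015, 2850 and 3054 bases of control. Ribosomal protein genes took 8.99%, 8.75% and 8.97% of the counts in DMF at 48 h, against 12.48%, 13.95% and 12.39% in control. The part of these differences in the calls at 24 and 48 h was not tested.

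KDM3B had 96.7, 108 and 97.3 CPM in DMF at 24 h against 138, 142 and 134 CPM in control. The groups were well apart (log2 fold change -0.46 ± 0.051, adjusted p = 2.8e-08). KDM3A, itself a known target of the hypoxia-inducible factors, had 84.8, 98.7 and 93.7 CPM in DMF at 24 h against 120, 126 and 114 CPM in control, a change of -0.38 ± 0.052. At 12 h the same gene had been higher in DMF, at 94.1 and 95.8 CPM against 78.3 and 78.8 CPM in control (0.28 ± 0.065). KDM5B had 52.2, 61.0 and 55.6 CPM in DMF at 24 h against 72.1, 77.3 and 68.3 CPM in control (-0.36 ± 0.067). JMJD1C, with -0.26 at 24 h, and KDM5A, with -0.28, were already lower at 6 h, by -0.26 and -0.18. KDM5C, the X-linked enzyme of the KDM5 family, was higher at 12 h (0.24 ± 0.054) and was not called at the other times. The H3K27 demethylase KDM6B was higher at 6 h (0.31 ± 0.064) and was lower by -0.16 at 48 h on counts but 0.04 on TPM.

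The KDM4 genes changed direction on counts between the early and the late times. At 6 h all 3 were higher in DMF in the 22 libraries. KDM4A alone of them was also called with TPM, and none was called in all 24 libraries (adjusted p = 0.51 for KDM4A, 0.29 for KDM4B and 0.59 for KDM4C). KDM4A had 60.8, 64.6 and 61.0 CPM in DMF at 6 h against 47.0, 49.2 and 48.4 CPM in control (log2 fold change 0.37 ± 0.049), and 38.5, 41.9 and 37.9 CPM in DMF at 24 h against 53.8, 50.4 and 51.5 CPM in control (-0.39 ± 0.049, not called in all 24 libraries, adjusted p = 0.38). KDM4B (chr19:4969113-5153595, plus strand) had 72.1, 73.8 and 71.8 CPM in DMF at 6 h against 61.4, 60.7 and 55.6 CPM in control (0.29 ± 0.055). At 48 h KDM4B had 113, 117 and 118 CPM in DMF against 180, 192 and 199 CPM in control. Every DMF library lay below every control library by a wide gap, and the change of -0.71 ± 0.054 was called in the 22 libraries (adjusted p = 1.6e-11) and in all 24 (0.0014). KDM4C had 39.8, 39.1 and 39.5 CPM in DMF at 48 h against 62.5, 57.4 and 60.4 CPM in control, a change of -0.60 ± 0.046 that was not called in all 24 libraries, beside 0.27 ± 0.044 at 6 h. KDM4A shares 48.5% of its exonic bases with other annotated genes, among them KDM4A-AS1 on the opposite strand, so its values are uncertain in that respect.

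**Figure D4:**
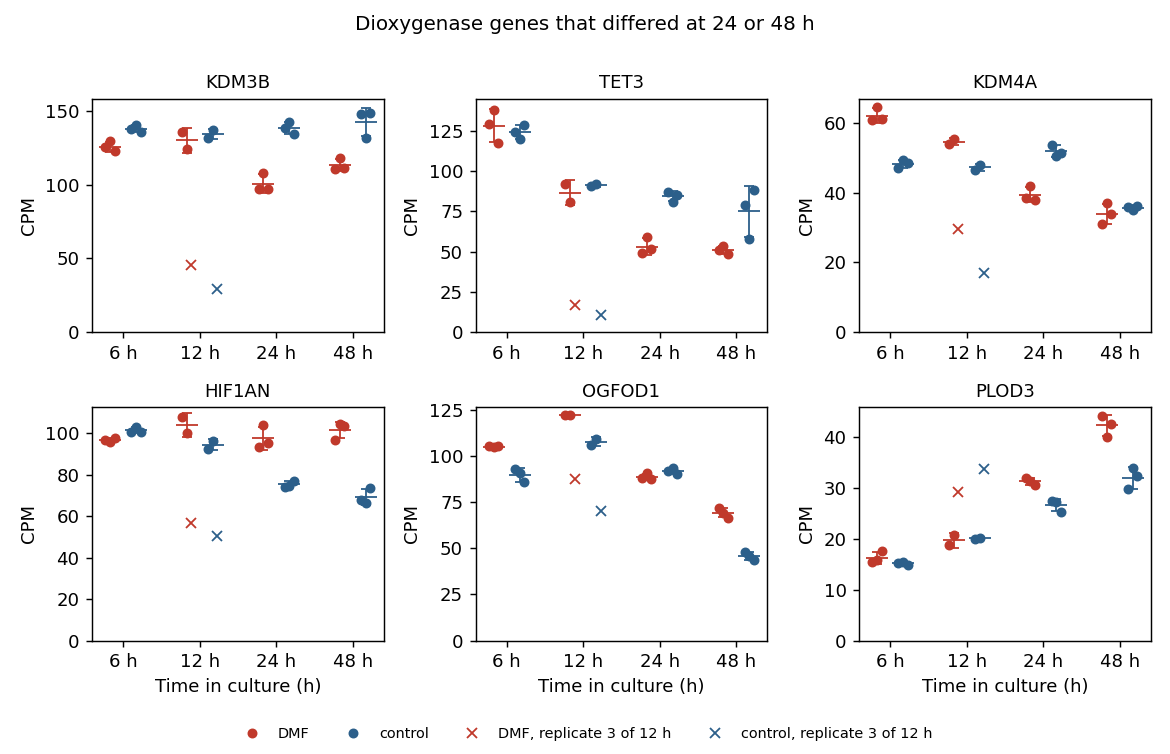
CPM of 6 dioxygenase genes by time, DMF left of control; points are libraries, bars the mean and SD, crosses the replicate 3 libraries of 12 h. KDM3B, TET3 and KDM4A lie lower in DMF at 24 h, and HIF1AN, OGFOD1 and PLOD3 lie higher in DMF at 48 h.

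The AlkB-type enzymes demethylate RNA and DNA bases. ALKBH5, a nuclear demethylase of N6-methyladenosine in messenger RNA, had 216, 218 and 216 CPM in DMF at 6 h against 166, 172 and 161 CPM in control. At 12 h it had 244 and 254 CPM in DMF against 179 and 183 CPM in control, at 24 h 207, 217 and 196 CPM in DMF against 170, 173 and 160 CPM in control, and at 48 h 220, 233 and 238 CPM in DMF against 177, 182 and 184 CPM in control. The groups never overlapped, and the log2 fold changes were 0.38 ± 0.042, 0.47 ± 0.051, 0.31 ± 0.042 and 0.36 ± 0.043. In the fit of all 24 libraries ALKBH5 was still called, with adjusted p between 0.00079 and 0.042. ALKBH5 shares 11.2% of its exonic bases with AC087164.1 on the opposite strand, so its reads are uncertain to that extent. FTO, the other demethylase of this mark, was lower at 6, 12 and 24 h by -0.19, -0.27 and -0.24 and was not called at 48 h (0.05 ± 0.064). None of these calls of FTO was kept with TPM, or in all 24 libraries (adjusted p = 0.81, 0.62 and 0.62). ALKBH2, which repairs alkylated bases in double-stranded DNA, was lower at 48 h, at 16.7, 14.7 and 15.2 CPM in DMF against 24.4, 27.2 and 21.5 CPM in control (-0.68 ± 0.069), and by -0.19 at 24 h. ALKBH4 was higher at 12 h only (0.37 ± 0.089). It shares 25.3% of its exonic bases with ORAI2 on the opposite strand, and its expected counts were not whole numbers in 23 libraries, as happens when reads are shared between genes. ALKBH2 and ALKBH4 were called at no time in all 24 libraries.

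The HIF hydroxylases mark the alpha subunits of the hypoxia-inducible factors. EGLN1 and EGLN2 hydroxylate prolines, after which the VHL ligase complex binds, and HIF1AN hydroxylates an asparagine in the activation domain. The 3 genes took different courses. EGLN2 had 103, 105 and 104 CPM in DMF at 6 h against 79.0, 83.2 and 80.1 CPM in control (log2 fold change 0.36 ± 0.059), and 79.3, 71.8 and 69.6 CPM in DMF at 48 h against 49.4, 64.1 and 57.0 CPM in control (0.35 ± 0.064). It was higher in DMF by 0.52 ± 0.072 at 12 h and 0.34 ± 0.059 at 24 h, but was called at no time in all 24 libraries (adjusted p 0.40 to 0.58). EGLN2 overlaps a readthrough transcript, RAB4B-EGLN2, and 30.6% of its exonic bases are shared with other genes.

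HIF1AN was not called at 6 h (-0.07 ± 0.047). At 24 h it had 93.5, 104 and 95.2 CPM in DMF against 74.3, 74.7 and 77.0 CPM in control, and at 48 h 97.0, 104 and 104 CPM in DMF against 67.6, 66.4 and 73.8 CPM in control. The DMF cultures thus stayed near the level at 6 h while the control cultures lay lower, and the log2 fold changes were 0.38 ± 0.047 and 0.57 ± 0.050. HIF1AN was called at 48 h only in all 24 libraries. EGLN1 went the other way. It was higher by 0.21 ± 0.053 at 6 h on counts, though -0.03 on TPM, and by 0.24 ± 0.063 at 12 h, and it was lower by -0.27 ± 0.051 at 24 h. At 48 h it had 73.0, 82.0 and 86.3 CPM in DMF against 104, 104 and 106 CPM in control, a change of -0.34 ± 0.052 (adjusted p = 2.8e-06, and 0.14 in all 24 libraries).

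OGFOD1 hydroxylates a proline of a protein of the small ribosomal subunit. It had 106, 105 and 105 CPM in DMF at 6 h against 92.8, 90.5 and 85.8 CPM in control (0.23 ± 0.040, not called in all 24 libraries). At 48 h it had 71.7, 69.4 and 66.7 CPM in DMF against 48.2, 45.6 and 43.6 CPM in control. The change of 0.59 ± 0.044 at 48 h was called in the 22 libraries (adjusted p = 1e-11) and in all 24 (0.0027). At 24 h the groups overlapped and OGFOD1 was not called (-0.05 ± 0.039).

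The collagen hydroxylases act on procollagen chains in the endoplasmic reticulum. PLOD1, a lysyl hydroxylase, had 65.9, 68.4 and 66.7 CPM in DMF at 6 h against 46.1, 47.6 and 45.0 CPM in control (log2 fold change 0.54 ± 0.051), and 101 and 106 CPM in DMF at 12 h against 60.7 and 58.0 CPM in control (0.80 ± 0.059). It remained higher by 0.42 ± 0.048 at 24 h and 0.30 ± 0.049 at 48 h. In all 24 libraries PLOD1 was called at 12 h only. P4HA2, a catalytic subunit of the prolyl hydroxylase, had 4.0, 3.96 and 4.20 CPM in DMF at 6 h against 2.19, 2.97 and 2.68 CPM in control (0.64 ± 0.15). At 12 h P4HA2 had 2.20 and 1.79 CPM in DMF against 0.754 and 1.31 CPM in control (0.91 ± 0.24), and without replicate 1 of control the change was 0.60 and no longer called (adjusted p = 0.066). At 48 h its groups overlapped (-0.15 ± 0.12). The expected counts of P4HA2 were not whole numbers in any library. PLOD3, a lysyl hydroxylase that also attaches sugars to hydroxylysine, was higher at 24 h (0.23 ± 0.057) and at 48 h, with 44.1, 40.0 and 42.5 CPM in DMF against 29.6, 33.8 and 32.2 CPM in control (0.39 ± 0.059). PLOD3 was called at no time in all 24 libraries.

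Control cultures were compared over time, since the same genes also moved without DMF. Against control at 6 h, 14 of the 34 genes were called in control at 12 h (39.6% of all genes), 20 at 24 h (56.5%) and 25 at 48 h (75%). The fit of all 24 libraries called 4, 5 and 14, against 18.8%, 16.8% and 42% of all genes. At 48 h, 12 were higher and 13 lower (10 and 4 in all 24 libraries), and 8 were at least 2-fold higher: P4HA2, KDM4B, KDM5B, KDM3A, KDM7A, EGLN1, PLOD1 and PLOD3. P4HA2 had 11.5, 12.3 and 13.6 CPM in control at 48 h against 2.19, 2.97 and 2.68 CPM in control at 6 h (log2 fold change 2.27 ± 0.14). KDM4B rose by 1.69 ± 0.054, KDM5B by 1.5 ± 0.069 and KDM3A by 1.44 ± 0.053. For KDM3A the levels were 205, 193 and 202 CPM in control at 48 h against 75.3, 72.6 and 74.4 CPM in control at 6 h. In the opposite direction, OGFOD1 was lower by -0.96 ± 0.042, ALKBH1 by -0.74 ± 0.083, TET3 by -0.72 ± 0.096 and KDM8 by -0.68 ± 0.12. These comparisons share the control libraries with those of DMF against control.

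Of the 8 genes that were at least 2-fold higher in control at 48 h, 5 were lower in DMF than in control at 48 h: KDM3A, KDM4B, KDM5B, KDM7A and EGLN1. Among all genes, 919 of the 1690 chosen in the same way, or 54.4%, were lower in DMF. Both comparisons use the control libraries of 48 h, so a gene chosen for a high level there is favoured to lie lower in DMF, and nothing is read from the count. In all 24 libraries 1 of 8 was lower (KDM4B), against 34.9% of all genes so chosen. KDM3A, for example, had 136, 151 and 143 CPM in DMF at 48 h, below all 3 control libraries but above every library of 6 h. KDM5B had 72.0, 79.3 and 77.0 CPM in DMF at 48 h against 125, 109 and 131 CPM in control, where replicate 2 of control, the lowest of them, was still above the DMF libraries (-0.65 ± 0.070). KDM7A was lower by -0.30 ± 0.098 with overlapping groups, and without replicate 3 of control at 48 h this was no longer called (-0.17, adjusted p = 0.12). PLOD1 and PLOD3, in contrast, were higher in DMF at 48 h.

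**Figure D5:**
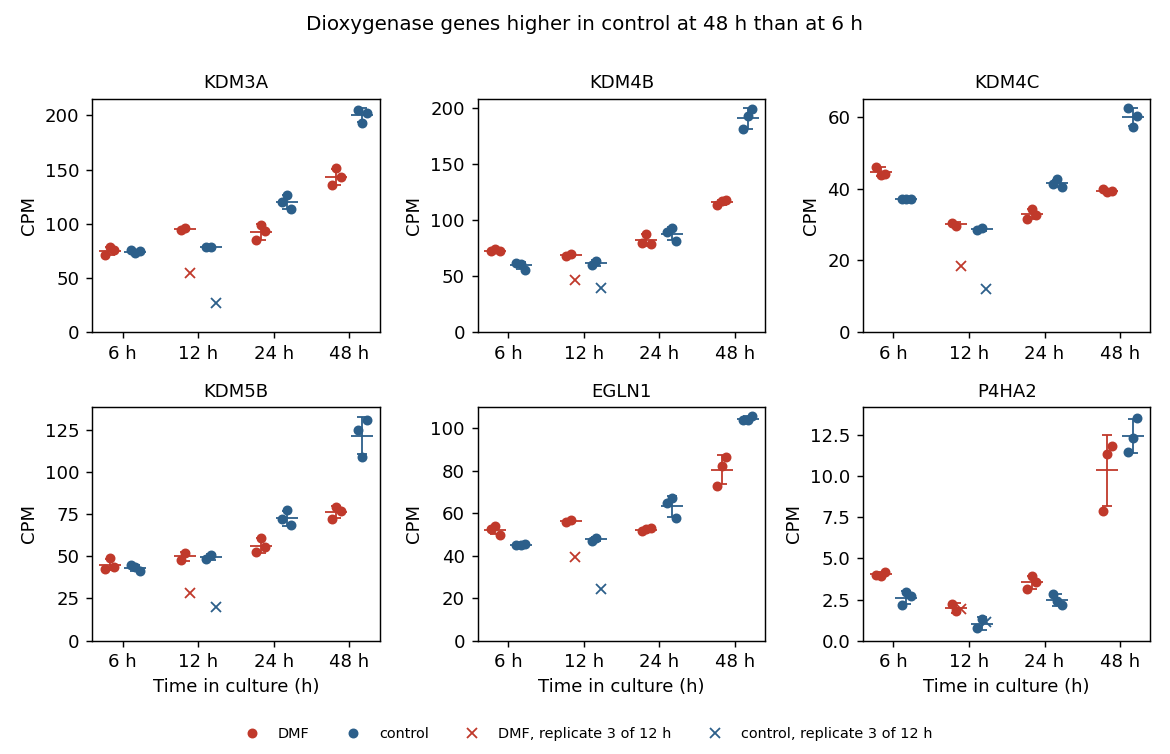
CPM of 6 dioxygenase genes that were higher in control at 48 h than at 6 h, DMF left of control at each time; points are libraries, bars the mean and SD, crosses the replicate 3 libraries of 12 h. In KDM3A, KDM4B, KDM4C, KDM5B and EGLN1 the DMF libraries of 48 h lie below control, and in P4HA2 they overlap.

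Because several of these genes are textbook targets of the hypoxia-inducible factors, the promoters were searched for the core letters of the hypoxia response element, ACGTG or GCGTG, on both strands. The windows were RefSeq promoters of GRCh38.p14, 250 bases before to 50 after each start, and 33 of the 34 genes had at least 1. A core was found in 7 of 9 windows of the genes at least 2-fold higher in control at 48 h and in 24 of 41 windows of the other genes, against 48.4% of 35116 promoters. The count by gene was 6 of 8 and 18 of 25. The first set had 9 windows for 8 genes and the other 41 windows for 25 genes, and a gene with more windows has more room for a core. The difference between the sets was not tested. Windows of 1 gene can overlap, CACGTG is counted on both strands, and a match is a description of letters and not a binding site. For the 4 genes that were at least 2-fold higher in control at 48 h and were lower in DMF with groups apart, 1 window each is shown. They are written 5′ to 3′ with the core in capitals, at chr2:86441121-86441420 (plus strand) for KDM3A, chr19:4968863-4969162 (plus) for KDM4B, chr1:202808372-202808671 (minus) for KDM5B and chr1:231422238-231422537 (minus) for EGLN1. A further KDM3A window, chr2:86441211-86441510, overlaps the one shown and holds the same core, which is thus counted in both. KDM4B held a CACGTG and 2 further cores, and each of the other windows held 1 core.
KDM3A: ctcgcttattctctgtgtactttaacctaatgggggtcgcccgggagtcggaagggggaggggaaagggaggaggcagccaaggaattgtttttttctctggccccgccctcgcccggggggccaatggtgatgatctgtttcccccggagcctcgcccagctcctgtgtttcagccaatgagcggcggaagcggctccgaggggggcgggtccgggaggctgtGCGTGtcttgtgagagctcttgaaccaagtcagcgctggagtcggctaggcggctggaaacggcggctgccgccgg
KDM4B: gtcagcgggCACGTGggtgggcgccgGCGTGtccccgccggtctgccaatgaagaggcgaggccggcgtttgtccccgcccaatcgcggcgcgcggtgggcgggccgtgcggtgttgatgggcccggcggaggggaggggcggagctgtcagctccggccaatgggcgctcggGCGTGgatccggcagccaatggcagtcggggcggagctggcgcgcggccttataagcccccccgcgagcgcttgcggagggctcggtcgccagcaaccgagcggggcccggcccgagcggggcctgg
KDM5B: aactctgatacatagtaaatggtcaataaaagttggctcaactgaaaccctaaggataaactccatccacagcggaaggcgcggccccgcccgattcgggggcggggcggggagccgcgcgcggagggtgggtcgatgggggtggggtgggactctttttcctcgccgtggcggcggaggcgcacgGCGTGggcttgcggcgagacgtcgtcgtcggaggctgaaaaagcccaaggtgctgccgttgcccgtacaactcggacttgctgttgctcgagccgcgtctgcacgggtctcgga
EGLN1: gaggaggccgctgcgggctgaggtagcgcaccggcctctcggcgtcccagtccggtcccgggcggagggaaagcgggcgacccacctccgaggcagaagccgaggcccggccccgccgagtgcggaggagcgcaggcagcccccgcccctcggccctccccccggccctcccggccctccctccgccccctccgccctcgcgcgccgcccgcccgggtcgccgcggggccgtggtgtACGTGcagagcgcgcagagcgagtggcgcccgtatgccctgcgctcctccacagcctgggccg

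The effect of DMF was also compared between times. A joint test of the 3 differences from the effect at 6 h called 25 of the 34 genes, against 69.1% of all genes, and KDM4B and P4HA2 alone of them in all 24 libraries, against 15% of all genes. Between 48 and 6 h the effect differed for 19 genes, 5 higher and 14 lower at 48 h, against 50.9% of all genes called (26.7% higher and 24.2% lower). In all 24 libraries the same 2 genes were called, against 12.3% of all genes. The largest differences were -1.0 ± 0.077 for KDM4B and -0.96 ± 0.068 for JMJD6, and in the other direction 0.64 ± 0.068 for HIF1AN. The genes with the same direction at all times, TET1, KDM8, ALKBH5 and EGLN2, were not called in the joint test (adjusted p = 0.082, 0.85, 0.17 and 0.27), which does not show that their effects were equal, and PLOD1 was called (2.5e-05).

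Related gene sets give the surroundings of these enzymes. Of 23 tested genes of the HIF pathway (the subunits, VHL and known targets, KDM3A among them), 9 rose and 2 fell with DMF at 6 h, where 23.8% and 23.4% of all genes were higher and lower. The split was 7 to 3 at 12 h (24.1% and 23.8% of all genes), 3 to 12 at 24 h (29.5% and 27.9%) and 3 to 17 at 48 h (33.6% and 30.9%). In all 24 libraries the split was 3 to 2, 2 to 0, 1 to 3 and 1 to 11 at the 4 times, the last against 13.3% and 12.5% of all genes. At 6 h the carbonic anhydrase CA9 had 25.2, 22.9 and 27.7 CPM in DMF against 13.9, 13.6 and 12.5 CPM in control (log2 fold change 0.92 ± 0.11). At 48 h CA9 had 13.98, 10.01 and 11.5 CPM in DMF against 61.0, 78.1 and 70.2 CPM in control (-2.66 ± 0.12). PDK1, a kinase that shuts pyruvate dehydrogenase, was lower by -1.01 at 24 h and -1.004 at 48 h, and BNIP3, a mitophagy receptor, by -0.77 at 48 h. ADM, a peptide hormone gene, was higher by 1.13 at 6 h, 1.64 at 12 h and 1.249 at 24 h, and VEGFA by 1.12 at 6 h. In control at 48 h, 20 of the 23 genes were higher and 1 lower than in control at 6 h, with a median log2 fold change of 1.65, where 38.2% and 36.8% of all genes were higher and lower. With all 24 libraries 18 were higher and none lower. This rise and the split of DMF against control at 48 h use the same control libraries. Genes high there are favoured to lie lower in DMF at 48 h. Of all genes at least 2-fold higher in control at 48 h, 54.4% were lower in DMF. The part of this in the split of 3 to 17 was not tested.

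Of 27 tested enzymes that make or use 2-oxoglutarate, succinate or fumarate, 6 were higher and 7 lower at 6 h, and the split was 6 to 10 at 12 h, 10 to 8 at 24 h and 6 to 12 at 48 h. That makes 13, 16, 18 and 18 of the 27 called, where 47.2%, 47.9%, 57.4% and 64.5% of all genes were. The split was 2 to 1, 2 to 2, 1 to 4 and 3 to 4 in all 24 libraries. GPT2 and PSAT1, aminotransferases that yield 2-oxoglutarate from glutamate, were higher in DMF at 6 h (1.26 ± 0.055 and 0.97 ± 0.037) and lower at 24 h (-0.88 ± 0.058 and -1.17 ± 0.037). PSAT1 had 518, 507 and 534 CPM in DMF at 6 h against 264, 267 and 262 CPM in control, and 148, 141 and 148 CPM in DMF at 24 h against 324, 322 and 336 CPM in control. IDH2, the mitochondrial NADP-dependent isocitrate dehydrogenase, was lower at 48 h, at 44.7, 45.4 and 47.1 CPM in DMF against 129, 150 and 137 CPM in control (-1.59 ± 0.059). OGDHL, a homologue of the dehydrogenase that consumes 2-oxoglutarate, was lower at 48 h by -1.49 while OGDH was higher by 0.55.

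Of 23 tested writers of the methyl marks, 3 were higher and 7 lower at 6 h. The split was 5 to 5 at 12 h, 2 to 16 at 24 h, where 29.5% and 27.9% of all genes were higher and lower, and 9 to 7 at 48 h. The fit of 24 libraries gave 0 to 1, 1 to 1, 1 to 1 and 1 to 3. The writers called at 6, 12 and 48 h were 10, 10 and 16 of 23, against 47.2%, 47.9% and 64.5% of all genes. METTL3, the catalytic subunit of the N6-methyladenosine writer, had 31.0, 31.6 and 32.1 CPM in DMF at 6 h against 45.9, 45.0 and 42.1 CPM in control (-0.49 ± 0.048, adjusted p = 4.9e-09). At this time the 2 erasers of the same mark differed in direction, ALKBH5 being higher and FTO lower (-0.19, adjusted p = 0.011). The FTO call was not kept with TPM, in all 24 libraries or without replicate 3 of DMF at 6 h. METTL3 was lower by -0.44 at 12 h and -0.46 at 48 h. SETDB1, a methyltransferase for lysine 9 of histone H3, was lower at 24 h (-0.55 ± 0.050) and 48 h (-0.64 ± 0.052), and NSD2, which methylates lysine 36, by -0.49 and -0.43. The fit of 24 libraries had 1 writer lower at 24 h, so SETDB1 and NSD2 were not both called there. Of 21 tested dioxygenases outside the 34, 5 were higher and 7 lower at 6 h, and the split was 6 to 6 at 12 h, 8 to 3 at 24 h and 8 to 8 at 48 h. These are 12, 12, 11 and 16 of 21 genes, against 47.2%, 47.9%, 57.4% and 64.5% of all genes. In all 24 libraries, where 20 of them were tested, the split was 0 to 1, 2 to 3, 1 to 0 and 3 to 3. The prolyl hydroxylase homologue P3H3 had 2.43, 2.02 and 1.81 CPM in DMF at 48 h against 11.1, 11.2 and 10.3 CPM in control (-2.47 ± 0.16).

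The summed TPM of the 14 markers of other cell types was 14.3 to 16.5 in DMF against 9.70 to 10.6 in control at 24 h, and 14.6 to 20.2 in DMF against 10.4 to 12.3 in control at 48 h. The sum at 6 h was 10.4 to 11.6 in DMF against 11.6 to 12.9 in control, and the part of these markers in the differences was not tested. Over the 4 times, 84 calls of single genes were made, and 66 of them held without each of the 22 libraries in turn. The count of lower genes at 6 h was 7 with all libraries, 4 without replicate 1 of DMF or of control at 6 h, and 3 without replicate 3 of DMF at 6 h. The count of lower genes at 12 h was 5, and 3 without replicate 2 of DMF or of control at 12 h. The calls that rested on single libraries included KDM3B (lost without replicate 1 or 3 of DMF or replicate 1 or 2 of control), KDM5A (without any DMF replicate or replicate 1 or 3 of control) and FTO (without replicate 3 of DMF) at 6 h. At 24 h KDM2A, JMJD1C and PHF8 were lost without replicate 1 of DMF (-0.11, -0.17 and -0.13), PHF2 without replicate 1 or 3 of DMF or replicate 3 of control, and ALKBH2 without replicate 3 of control (-0.14). The small differences of JMJD6 at 24 and 48 h were lost without 7 and 3 of the libraries, down to 0.08 without replicate 1 of DMF and to -0.07 without replicate 2 of control. At 12 h KDM5A and PHF2 were lost without replicate 2 of DMF or of control. ALKBH1 at 6 h, KDM4B and HIF1AN at 12 h and KDM6B at 48 h were lost without 12, 13, 8 and 11 of the 22 libraries, some of them of other groups, since their adjusted p lay close to the threshold.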

How the data were processed

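Total RNA of HBL-1 cells came from a Qiagen RNeasy Mini extraction and standard Illumina libraries, per the labels' protocols. Per the submitters' processing notes, the build was GRCh38.p12 and the tools were HISAT2, HISAT and RSEM, and tool versions and strand are not given in the sources used here. The deposited gene tables hold RSEM's expected counts, which are estimated counts per gene without normalization. They also hold TPM, in which the authors divided by effective length and gave each library the same sum, and gene and effective lengths in bases, per the file headers. FPKM was not used. Reads that fit several genes are split between them by RSEM, so values that are not whole mark shared reads.

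Expected counts were rounded and tested in edgeR 4.0.16 (R 4.3.3): filterByExpr by group kept 13606 of 21831 genes, TMM scaled the libraries, and a quasi-likelihood fit of 22 libraries with 1 mean for each of 8 groups had 14 residual degrees of freedom. Replicate 3 of DMF and of control at 12 h stood apart and were left out, and the fit of all 24 libraries (13419 genes) is the main alternative. Benjamini-Hochberg adjustment ran over all genes tested, and calls are at adjusted p under 0.05. Standard errors are the size of the log2 fold change over the root of the F statistic. CPM values are TMM-scaled over the 24 libraries, and means ± SD leave out the same 2 libraries. Depth ran from 2870751 to 40906596 counts per library and sets the precision for TET1, KDM8 and P4HA2 most. The fitting code was run on simulated counts with 200 genes changed and the same dispersion for every gene and library. That run cannot show how the fit behaves with the unequal spread of the real libraries.

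The members, the companion gene lists and the choice of 22 libraries were made with earlier results of these data known. Members may all be named. Of each companion list up to 4 genes per time were eligible, those with the smallest p. Alternatives were all 24 libraries, DESeq2's size factors in edgeR, no filter on low counts, DESeq2 1.42.0, limma 3.58.1 with trend on log2(TPM + 1) and log2(TPM + 0.1), a replicate block, separate fits of the groups compared, and each of the 22 libraries left out. Limma on TPM scaled by TMM was added after seeing the data. No 2 replicates of the same treatment and time were duplicates: the chi-square per degree of freedom between them was 1.81 or more. Libraries of different groups were not compared in this way. Locations and overlaps came from GENCODE v29, promoters from RefSeq.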

Additional observations from a re-analysis of the deposited data

Results flagged for a closer look

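The effect of DMF (log2, DMF over control) at 48 h minus that at 6 h differed from 0 for 19 of the 34 genes in the 22 libraries by edgeR's quasi-likelihood test of the difference, adjusted over all genes, where 50.9% of all genes were called. Lower at 48 h were KDM4B (-1.0), JMJD6 (-0.96), KDM4C (-0.87), P4HA2 (-0.79), KDM5B (-0.71), ALKBH2 (-0.66), TET3 (-0.59), EGLN1 (-0.55), KDM3A (-0.48), KDM6B (-0.47), KDM4A (-0.40), PLOD1 (-0.24), KDM2B (-0.20) and KDM3B (-0.19). Higher at 48 h were HIF1AN (0.64), JMJD1C (0.42), OGFOD1 (0.36), PLOD3 (0.28) and FTO (0.25). In all 24 libraries KDM4B and P4HA2 were called.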

How the results depend on the processing

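Limits come from the 2 libraries of 12 h that stood apart, from depth in replicate 1 of DMF at 48 h, and from small changes that turn on scaling. Replicate 2 of control at 48 h is a further limit. Among the 22 libraries it had the shortest average counted transcript (2850 bases) and the largest ribosomal protein share (13.95%). Its chi-square per degree of freedom was 16.1 against replicate 1 and 19.6 against replicate 3. Deviations of same-numbered DMF and control replicates from their group means correlated at -0.054 to 0.044 over 11 pairs. No shared deviation was thus seen, which does not settle whether the libraries were handled in pairs. The replicate block kept all 84 calls of single genes, with 12 higher and 8 lower at 6 h. Under the block the split was 14 to 5 at 12 h, 7 to 18 at 24 h and 7 to 14 at 48 h.

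With all 24 libraries the counts of the 34 genes, higher and lower, split 2 to 1 at 6 h, 3 to 2 at 12 h, 1 to 2 at 24 h and 3 to 3 at 48 h, and those of all genes were 675 and 750, 989 and 1335, 1048 and 885, and 1785 and 1680, against 3242 and 3179, 3277 and 3238, 4010 and 3795, and 4567 and 4208 in the main fit. The tests between times then called 2 and 2 genes, and those of control at 12, 24 and 48 h 4, 5 and 14. With limma on log2(TPM + 1) and log2(TPM + 0.1) alike, 6 genes were higher at 6 h, 7 at 12 h and 14 at 48 h, and 6 were lower at 48 h. Over all genes these 2 settings gave 1393 and 1394 higher and 4785 and 4838 lower at 6 h, 1552 and 1571 higher at 12 h, and 2382 and 2344 lower at 48 h. The sign turned under both for EGLN1 at 6 h (-0.031 and -0.032), KDM2B (0.049 and 0.050), KDM6B (0.038 and 0.041) and JMJD6 (0.047 and 0.048) at 48 h. With TPM scaled by TMM, 4 genes were lower at 6 h and 3 at 12 h, and no sign turned. DESeq2, its size factors, no filter and fits of only the groups compared kept 83, 83, 80 and 82 of the 84 calls, whereas all 24 libraries kept 17, limma on TPM 57 with either pseudocount, and limma on TMM-scaled TPM 73. The cause was not tested.

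Without 1 library at a time, the counts higher and lower ran from 12 to 14 and 3 to 7 at 6 h, 11 to 15 and 3 to 5 at 12 h, 6 to 7 and 14 to 19 at 24 h, and 7 to 9 and 12 to 15 at 48 h. Over all genes they ran from 2850 to 3490 and 2798 to 3349, 2624 to 3401 and 2642 to 3499, 3607 to 4099 and 3468 to 4032, and 4072 to 4639 and 3765 to 4236. The joint test between times gave 24 to 25, 48 h minus 6 h 18 to 22, and control at 12, 24 and 48 h 10 to 17, 20 to 21 and 24 to 27.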
